A study of Mus musculus with 4 samples.

Results

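Ccl3, Ccl4, Ccl5 and Xcl1 are 4 chemokine genes that mouse cytotoxic lymphocytes express, and they were followed here by name among the 31053 genes counted. All 4 were found, each under 1 identifier. Ccl3 (ENSMUSG00000000982) lies at chr11:83647844-83649355 on the minus strand, Ccl4 (ENSMUSG00000018930) at chr11:83662584-83664683 on the plus strand and Ccl5 (ENSMUSG00000035042) at chr11:83525778-83530518 on the minus strand, in the GENCODE annotation of build GRCm38. Ccl3 and Ccl4 are neighbours, pointing away from each other, with 13229 bases from the Ccl3 start to the Ccl4 start. Xcl1 (ENSMUSG00000026573) lies at chr1:164931644-164935527 on the minus strand.

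The series holds 4 droplet libraries, 1 from the brain and 1 from the spleen at either age (aged and young), of mouse cells sorted for strong CD45, which marks leukocytes. The labels give a tamoxifen injection and a count of tdTomato-bearing natural killer (NK) cells for all 4 libraries, and name no strain, genotype, age in numbers or number of pooled animals. They also call the cells of every library neuroblasts, which the markers below do not bear out. Each count is of unique molecular identifiers (UMIs), tags that mark single RNA molecules. Because each group was a single library, nothing could be tested against replicates, and an aged to young or brain to spleen difference is one between 2 libraries. Values in parentheses after a level or ratio are 95% limits from counting error alone.

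The matrices held between 26384220 UMIs (young brain) and 57011537 UMIs (aged brain). After filtering, 11833 aged and 3657 young brain cells and 5260 aged and 6348 young spleen cells were used. The young brain had 4563 cell barcodes in common with the aged spleen (chance gives 6.63), and the 4913 of its 8570 cells whose barcode held more UMIs in the aged spleen were left out. None of the aged brain NK, CD8 T or NKT cells described below lay at a barcode with more UMIs in another library. Class names end in "-like" because they rest on marker genes, of which NK-like cells summed to 10270 and 14220 UMIs per 1000000 UMIs (CPM) in aged and young spleen. The 4 genes were kept out of the clustering, so their levels did not place a cell in a class.

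Chemokines are small secreted proteins that steer leukocytes along gradients. Ccl3 and Ccl4 are macrophage inflammatory proteins and Ccl5 is RANTES, and Ccl3 and Ccl5 bind the receptor Ccr1. Xcl1 (lymphotactin) binds Xcr1, a receptor of dendritic cells that present captured antigen to CD8 T cells. NK cells and CD8 T cells are known for all 4 genes. Macrophages and microglia are known for Ccl3 and Ccl4 as well.

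The RefSeq table (build GRCm38.p6) held the 250 bases before the start of Ccl3 and of Xcl1 but not of Ccl4 or Ccl5. Only the Ccl3 and Xcl1 stretches are therefore shown. Capitals mark the letters GGAAA on either strand, the core recognised by the activation factor NFAT.
Ccl3 (chr11:83649379-83649628, minus strand): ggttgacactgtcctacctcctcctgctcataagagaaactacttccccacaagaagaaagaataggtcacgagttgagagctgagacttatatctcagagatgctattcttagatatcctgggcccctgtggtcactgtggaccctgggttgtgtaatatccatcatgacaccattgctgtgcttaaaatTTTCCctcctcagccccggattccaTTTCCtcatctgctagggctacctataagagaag
Xcl1 (chr1:164935523-164935772, minus strand): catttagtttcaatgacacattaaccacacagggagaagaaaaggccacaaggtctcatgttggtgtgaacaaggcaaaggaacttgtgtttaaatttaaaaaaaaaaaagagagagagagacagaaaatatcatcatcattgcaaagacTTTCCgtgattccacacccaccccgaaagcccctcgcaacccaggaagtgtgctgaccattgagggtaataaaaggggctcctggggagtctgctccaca
The Ccl3 stretch held 2 matches, starting 59 and 34 bases before the gene start, and the Xcl1 stretch held 1, starting 100 bases before it. Among 32851 promoters of the same length, 55.6% held at least 1 such match, so the motif is common. Neither stretch held the AP-1 letters TGANTCA (6.75% of promoters), the CRE letters TGACGTCA (1.55%), the letters TATAAA (12.4%) or the NF-kB consensus (3.9%), each searched on both strands. Ccl4 and Ccl5 are named only.

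Among the 5 classes followed (NK-like, NKT-like, CD8 T-like, microglia-like and border macrophage-like), NK-like cells of the spleen held the most of all 4 genes, and Ccl5 was the most abundant of the 4 genes there. In NK-like cells Ccl3 stood at 1527 CPM (1481 to 1573) in aged and 1878 CPM (1847 to 1911) in young spleen. In microglia-like cells it stood at 104 CPM (99.6 to 109) in aged and 87.2 CPM (80.4 to 94.4) in young brain. Border macrophage-like cells held 58.8 CPM (49.4 to 69.5) in aged and 132 CPM (103 to 167) in young brain, the second of which overlapped aged microglia-like cells within counting error. CD8 T-like cells held 32.5 and 14.2 CPM of Ccl3 and NKT-like cells 8.12 and 17.6 CPM, each in aged and young spleen, with overlapping intervals between CD8 T-like and NKT-like cells of the young spleen. Ccl4 stood at 3393 and 3269 CPM in NK-like cells of aged and young spleen. Next came CD8 T-like cells of the aged spleen with 144 CPM (128 to 161) and microglia-like cells of the young brain with 136 CPM (128 to 145), which did not differ beyond counting error.

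Ccl5 and Xcl1 had another order. For Ccl5, CD8 T-like cells of the aged spleen came after NK-like cells with 3514 CPM (3432 to 3597), then NKT-like cells with 1513 CPM in aged and 2047 CPM in young spleen, then CD8 T-like cells of the young spleen with 748 CPM. Border macrophage-like and microglia-like cells were at or below 253 CPM. For Xcl1, NK-like cells held 1276 and 1008 CPM in aged and young spleen and NKT-like cells 748 (691 to 808) and 848 (815 to 881) CPM, so NKT-like cells were much nearer to NK-like cells in Xcl1 than in Ccl3. CD8 T-like cells held 73.1 and 52.2 CPM of Xcl1 in aged and young spleen, with overlapping intervals. Microglia-like cells of aged and young brain held 9 and 11 Xcl1 UMIs in all, or 0.515 and 1.58 CPM.

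**Figure D1:**
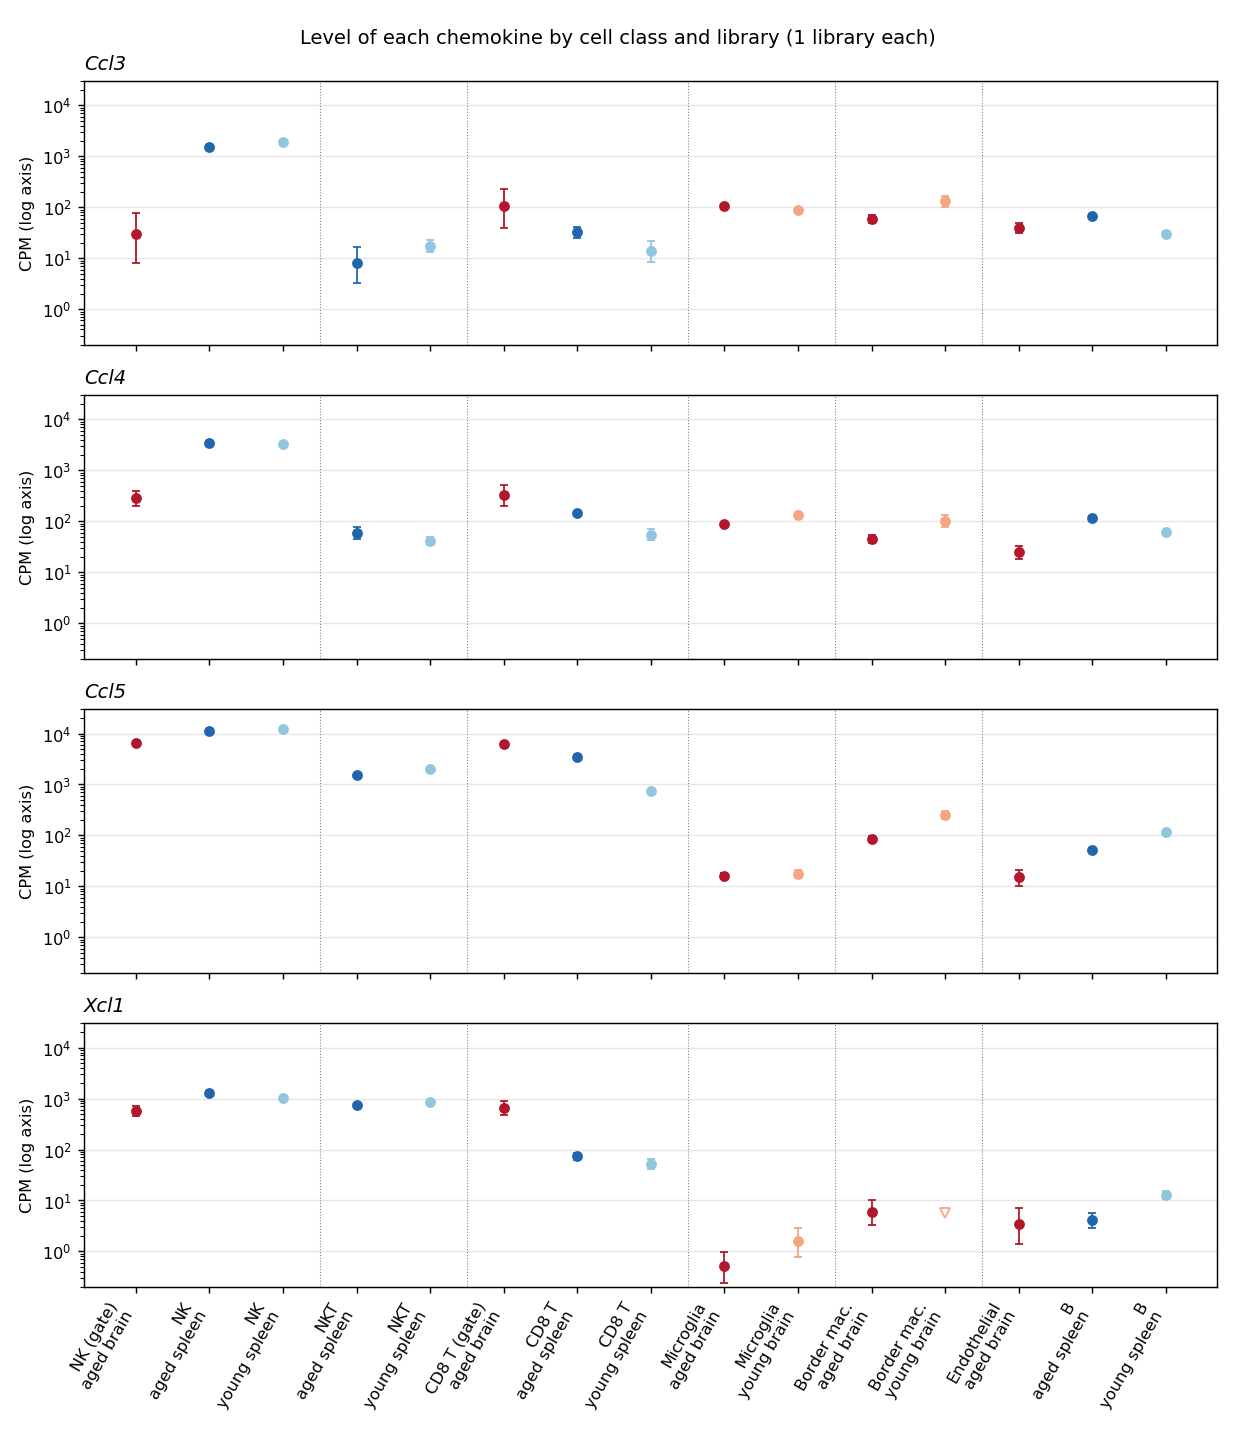
Level of each chemokine in CPM (log axis) by cell class and library (aged brain dark red, young brain light orange, aged spleen dark blue, young spleen light blue), with 95% counting intervals, the gated cells of the aged brain, endothelial-like and B-like cells for comparison, and an open triangle for a class with 0 UMIs, drawn at the floor of 3 counts. NK-like cells of both spleens lead in Ccl3, Ccl4 and Ccl5, and Xcl1 is near 1000 CPM in NK-like and NKT-like cells but near 1 CPM in microglia-like cells.

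The first comparison asked whether spleen NK-like cells, which kill infected or altered cells, differed in these chemokines with age (613 aged and 1675 young cells). None of the 4 genes differed by 2-fold or more. Ccl3 was lower in aged than young cells, at a ratio of 0.813 (0.785 to 0.841), and Xcl1 was higher, at 1.27 (1.22 to 1.32). Ccl4 stood at 1.04 (1.01 to 1.06), and Ccl5, with 11190 CPM in aged and 12070 CPM in young cells, at 0.927 (0.916 to 0.940). Among 8846 genes with at least 50 UMIs, 2.02% were at least 2-fold higher and 2.27% at least 2-fold lower in aged NK-like cells. The median gene moved by -0.13 on the log2 scale. At a mitochondrial limit of 5% in place of 10%, Xcl1 turned to 0.730, Ccl4 to 0.566 and Ccl5 to 1.02. The direction for these genes thus depended on that limit, while Ccl3 stayed below 1 under every setting tried. The 5% limit cut the aged NK-like cells far more than the young ones. Of cells deep enough to be thinned as below, 88 aged and 1204 young cells were left, against 612 and 1664 at 10%. Whether this loss moved the ratios was not tested.

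The share of NK-like cells with at least 1 UMI was lower in aged cells for Ccl3 and higher for Xcl1. For Ccl4 the shares of the 2 ages had overlapping intervals. Ccl3 was found in 77.0% of aged and 83.1% of young cells, Ccl4 in 84.8% and 86.5%, Ccl5 in 99.8% and 99.9%, and Xcl1 in 74.4% and 66.7%, each for aged and young spleen. Median depth was 4339 UMIs per aged and 3997 per young cell. With each cell thinned to 1000 UMIs, Ccl3 was in 54.1% of aged and 62.1% of young cells, Ccl4 in 68.1% and 71.3%, and Xcl1 in 50.3% and 43.3%, the same order as without thinning. CD4 T-like cells, used as a gauge of free RNA for Ccl3 and Ccl4, had Ccl3 in 3.099% of aged and 3.80% of young cells and Ccl4 in 4.51% and 7.60%, at median depths of 5258 and 4766 UMIs. B-like cells, the gauge for Ccl5 and Xcl1, had Ccl5 in 19.1% of aged and 31.5% of young cells and Xcl1 in 1.88% and 4.06%, at 4180 and 3802 UMIs. All NK-like shares lay far above these.

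Within NK-like cells Ccl3, Ccl4 and Xcl1 were spread more unevenly than Ccl5. In the aged spleen, the 10% of cells with the most UMIs of a gene held 40.1% of Ccl3, 41.2% of Ccl4, 40.5% of Xcl1 and 25.8% of Ccl5 UMIs. In the young spleen these were 35.9%, 35.5%, 44.5% and 23.8%. Of the NK-like cells, 27.9% of aged and 31.4% of young cells held at least 10 Ccl3 UMIs, and these cells held 73.4% and 73.0% of all Ccl3 UMIs of their class. Single cells reached 86 Ccl3, 241 Ccl4, 250 Ccl5 and 72 Xcl1 UMIs in the aged spleen, against 68, 126, 332 and 82 in the young spleen. Xcl1 was at 10 or more UMIs in 21.4% of aged and 14.2% of young cells. Ccl5 was at that count in 96.9% of aged and 96.6% of young cells.

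The 2 spleens filled different NK-like sub-clusters, so a ratio over the class also compares sub-clusters. Of the aged cells 485 lay in sub-cluster 4 (11 young), led by Vegfa, Irf8 and Nr4a1, while young cells lay in sub-clusters 16 (553), 17 (409) and 18 (561), which held 27, 18 and 17 aged cells. Sub-cluster 18, led by Cma1, Klrg1 and Gzmb, genes of mature NK cells, had more Ccl3 and less Xcl1 in its young cells than sub-clusters 16 and 17 had in theirs. Its young cells held 3155 CPM of Ccl3, 5548 of Ccl4, 14910 of Ccl5 and 592 of Xcl1. Its 17 aged cells held 2200 CPM of Ccl3 (1830 to 2623) and 355 CPM of Xcl1 (217 to 548). The 11 young cells of sub-cluster 4 held 3541 CPM of Ccl3 (2973 to 4186) and 3773 CPM of Xcl1 (3186 to 4437), the highest Xcl1 of the groups named here.

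Sub-cluster 17, led by Klrb1b, Anxa1 and Ccr2, was at 1484 CPM of Ccl3 and 1242 CPM of Xcl1 in young cells. Sub-cluster 16, led by Klra4, Klra8 and Ccr2, stood close to it in young cells, at 1495 CPM of Ccl3 and 1197 CPM of Xcl1. Sub-cluster 4 of the aged spleen held 1653 CPM of Ccl3, 3697 of Ccl4, 11070 of Ccl5 and 1413 of Xcl1, more Xcl1 than the young cells of sub-clusters 16, 17 and 18, and less Ccl3 and Ccl4 than those of sub-cluster 18. In sub-cluster 9, led by the heat shock genes Hspa1a and Hspa1b, Ccl3 was at 690 CPM in 66 aged and 532 CPM in 141 young cells and Xcl1 at 530 and 488 CPM. Ccl4 there was at 1225 CPM in aged and 640 CPM in young cells, both far under the class, while Ccl5 was at 10570 and 11460 CPM. Ccl5 therefore varied by less than the other 3 genes across sub-clusters.

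**Figure D2:**
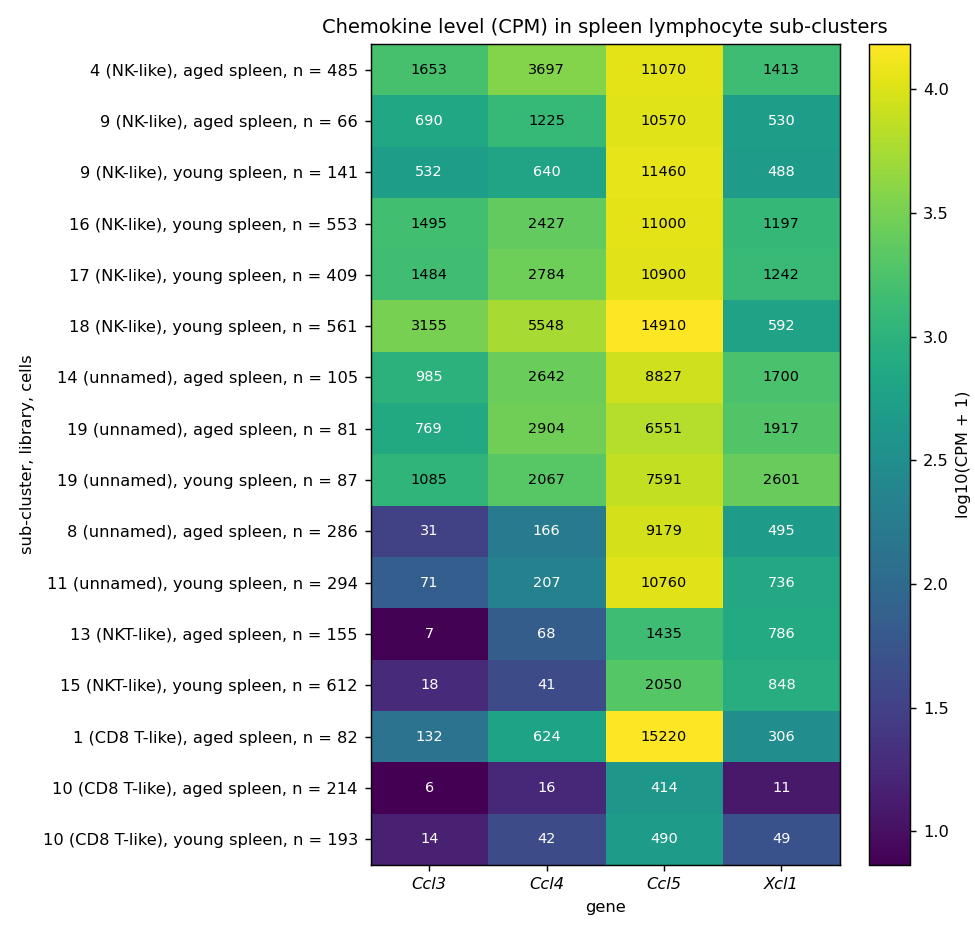
Heat map of chemokine levels in spleen lymphocyte sub-clusters, 1 row for each pair of sub-cluster and library shown with its number of cells (small groups such as the 11 young cells of sub-cluster 4 are not drawn), 1 column for each gene, the CPM printed in each field and the colour giving log10(CPM + 1). Of the rows drawn, sub-cluster 18 has the highest Ccl3 (3155 CPM in young spleen) with low Xcl1 (592 CPM), and sub-cluster 19 has the highest Xcl1 (1917 CPM in aged and 2601 CPM in young spleen).

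NKT-like cells, T cells with NK receptors that answer to lipid antigens, were rich in Xcl1 and Ccl5 and poor in Ccl3 (176 aged and 614 young cells). Xcl1 stood at 748 CPM in aged and 848 CPM in young cells, a ratio of 0.883 (0.808 to 0.963), and Ccl5 at 1513 and 2047 CPM, a ratio of 0.739 (0.696 to 0.785), which turned to 1.20 when cells were gated without clusters, a gate that also took in NK cells. Ccl4 was at 59.2 CPM in aged and 41.1 CPM in young cells, a ratio of 1.44 (1.02 to 2.01). Ccl3, with 7 UMIs in aged and 53 in young cells, gave a ratio of 0.462 whose interval held 1 (0.177 to 1.02). This was the 1 gene of 4 past 2-fold, against 2.5% of 7034 genes at least 2-fold higher and 3.09% at least 2-fold lower in aged NKT-like cells.

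Xcl1 was in 73.9% of aged and 83.2% of young NKT-like cells and Ccl5 in 93.2% and 95.0%. Thinned to 1000 UMIs, Xcl1 was in 45.5% of aged and 48.4% of young cells. Ccl3 was in 3.41% of aged and 5.70% of young cells, near the shares of 3.099% and 3.80% in the CD4 T-like gauge. These shares also lay below the 11.7% and 9.63% of B-like cells, so no Ccl3 expression was read from them. Here too the ages lay in different sub-clusters: 155 aged cells in sub-cluster 13, led by Mmp9, Atp8a2 and Itga1, and 612 young cells in sub-cluster 15, led by Cxcr6. The 21 aged cells of sub-cluster 15 held 490 CPM of Xcl1 (368 to 639), against 848 CPM in its young cells.

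CD8 T-like cells of the spleen held more Ccl3, Ccl4 and Ccl5 in the aged library (296 aged and 212 young cells). Ccl5 was at 3514 CPM in aged and 748 CPM in young cells, a ratio of 4.70 (4.40 to 5.03). Ccl4 was at 144 and 55.2 CPM, a ratio of 2.61 (2.01 to 3.41), and Ccl3 at 32.5 and 14.2 CPM, a ratio of 2.30 (1.36 to 4.06). Xcl1 was at 73.1 CPM in aged and 52.2 CPM in young cells, a ratio of 1.40 (1.05 to 1.89), and 0.359 at a mitochondrial limit of 5%. So 3 of 4 genes were at least 2-fold higher in aged cells, where 2.75% of 5994 genes were and 1.05% were at least 2-fold lower. The gap did not hold under every way of choosing the cells: at that limit Ccl5 was at 0.806 and Ccl4 at 0.940. With CD8 T cells gated by Cd3 and Cd8 UMIs within lymphocyte clusters, Ccl5 was at 3825 CPM in 429 aged and 2497 CPM in 284 young cells, and Ccl3 at 31.7 and 60.7 CPM.

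The class held 2 unlike sub-clusters in different numbers. Sub-cluster 1, led by Gzmk, which encodes a granzyme of effector memory T cells, held 82 aged and 19 young cells and had Ccl5 at 15220 CPM (14850 to 15600) in aged and 8513 CPM (7664 to 9430) in young cells. Its Ccl4 was at 624 and 464 CPM, with overlapping intervals, and its Xcl1 at 306 and 139 CPM. Sub-cluster 10, led by Cd8b1, Cd8a and Dapl1 with the homing receptor Ccr7, held 214 aged and 193 young cells. There Ccl5 was at 414 CPM (382 to 446) in aged and 490 CPM (453 to 529) in young cells, Ccl4 at 16.5 and 41.6 CPM and Xcl1 at 11.4 and 49.3 CPM. In sub-cluster 10 all 4 genes were thus no higher in aged than in young cells, and 1 aged CD8 T-like cell held 674 of the 7019 Ccl5 UMIs of the class.

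Ccl5 was found in 54.1% of aged and 48.6% of young CD8 T-like cells, and in 33.3% and 17.9% after thinning. Ccl3 was found in 10.8% of aged and 5.66% of young cells, Ccl4 in 22.6% and 19.3%, and Xcl1 in 12.5% and 8.49%. Ccl5 at 10 or more UMIs per cell was found in 84 aged and 17 young cells. Median depths were 6711 UMIs in aged and 6154 UMIs in young cells.

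Several spleen sub-clusters that kept no class name held high levels. Sub-cluster 8, nearly all aged (286 cells) and led by Yes1, Dmrta1 and Klra6, had Ccl5 at 9179 CPM and Xcl1 at 495 CPM with Ccl3 at 31.3 CPM. Sub-cluster 11, mostly young (294 cells) and led by Trdc and Ly6c2, had Ccl5 at 10760, Xcl1 at 736 and Ccl3 at 70.9 CPM in young cells. In both, Ccl5 was near the NK-like level and Ccl3 was more than 10-fold below the NK-like level. Sub-cluster 19, led by AC163354.1 and Tmem176b with the transcription factor gene Ahr and the growth factor receptor gene Kit, had Xcl1 at 1917 CPM in 81 aged and 2601 CPM in 87 young cells. Its Ccl3 was at 769 and 1085 CPM, and its Ccl5 at 6551 and 7591 CPM. Sub-cluster 14, led by Kit and Batf3, had Xcl1 at 1700 CPM in 105 aged and 1597 CPM in 18 young cells, with overlapping intervals. At the other end, sub-cluster 5, led by Igfbp4 and Ly6c1 with Ccr7 and Lef1, genes of naive T cells, held 4.58 and 13.2 CPM of Ccl3 and 35.1 and 90.4 CPM of Ccl5 in 239 aged and 279 young cells.

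B-like cells, antibody-making lymphocytes, carried Ccl3 and Ccl4 above the CD4 T-like gauge but below erythroid-like cells. Erythroid-like cells held 426 CPM of Ccl3 in aged and 1435 CPM in young spleen, and 765 and 1626 CPM of Ccl4. In B-like cells Ccl3 was at 68.9 CPM (63.5 to 74.6) in 1919 aged and 30.3 CPM (27.0 to 33.9) in 2389 young cells. Their Ccl4 was at 118 and 62.0 CPM. Cluster 22, led by the activation genes Egr3 and Irf4, held 1137 aged and 215 young cells and had Ccl3 at 91.3 CPM in aged and 58.4 CPM in young cells. Cluster 21, led by Ms4a1, had Ccl3 at 38.6 CPM in aged and 28.0 CPM in young cells. Ccl4 at 10 or more UMIs was found in 22 aged and 4 young B-like cells. Free RNA (barcodes of at most 100 UMIs) held less Ccl3 in the aged spleen, 177 CPM, than in the young spleen, 407 CPM, and its part in these values was not tested.

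The second comparison set lymphocytes of the aged brain against those of the aged spleen. Brain lymphocytes were few, 110 in aged and 20 in young brain, and 108 aged and 18 young cells of them fell in sub-cluster 0, led by Ttr and the complement genes C1qa and C1qb of choroid plexus and microglia. They were therefore gated on their own UMIs within lymphocyte clusters of both tissues: NK cells by Ncr1 or Klrb1c without Cd3d, Cd3e or Cd3g, CD8 T cells by Cd3 genes with Cd8a or Cd8b1, and NKT cells by Cd3 genes and Klrb1c without Cd8b1. The NK gate does not separate NK cells from other innate lymphocytes that carry Ncr1 or Klrb1c. The part of such cells in either tissue was not tested. In gated NK cells of the aged brain Ccl3 was nearly missing and Ccl5 was found in most cells. Ccl4 and Xcl1 were lower there than in gated NK cells of the aged spleen.

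Ccl3 gave 4 UMIs in 46 gated NK cells of the aged brain, 29.7 CPM (8.10 to 76.1), against 1306 CPM (1266 to 1347) in 651 cells of the aged spleen, a ratio of 0.0228 (0.0062 to 0.0583). Ccl4 was at 283 CPM in aged brain and 3104 CPM in aged spleen, a ratio of 0.0910 (0.0644 to 0.125). Of the 38 Ccl4 UMIs in the brain cells, 17 lay in 1 cell. Xcl1 was at 565 CPM in aged brain and 1335 CPM in aged spleen, a ratio of 0.423 (0.333 to 0.531), and Ccl5 at 6586 and 10360 CPM, a ratio of 0.635 (0.594 to 0.679). So 3 of 4 genes were at least 2-fold lower in the brain cells, where 15.4% of 6351 genes were and 10.1% were at least 2-fold higher. The median gene moved by 0.01 on the log2 scale.

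Shares of positive NK cells gave the same order. Ccl3 was found in 6.52% of gated NK cells of aged brain and 73.7% of those of aged spleen, Ccl4 in 30.4% and 82.5%, Xcl1 in 63.0% and 77.1%, and Ccl5 in 93.5% and 99.4%. Median depth was 2588 UMIs in brain and 4472 UMIs in spleen cells. Thinned to 1000 UMIs the shares were 4.35% in brain and 51.0% in spleen for Ccl3, 13.04% and 67.4% for Ccl4, 47.8% and 56.9% for Xcl1, and 87.0% and 98.3% for Ccl5. Without thinning, the brain share for Ccl3 lay below that of microglia-like (13.8%) and endothelial-like cells (10.8%) of the same library. Thinned, the 4.35% rested on 2 cells. It lay within the interval of endothelial-like cells, 3.18% (1.66 to 5.49), and below the 7.32% of microglia-like cells. No Ccl3 expression was read from it.

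**Figure D3:**
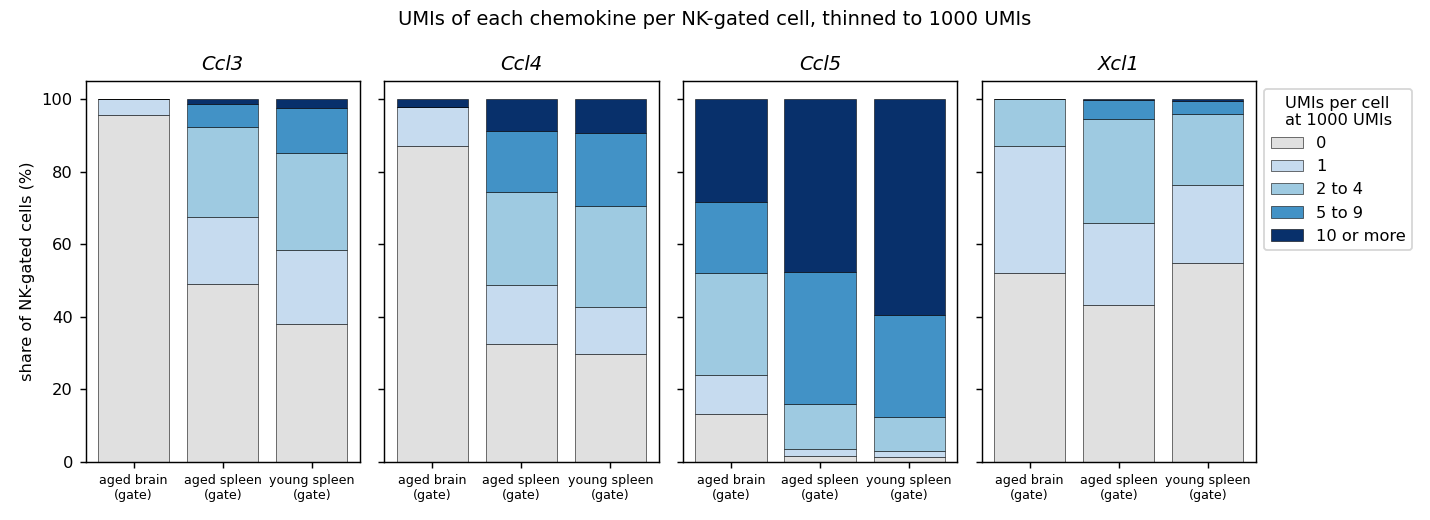
Share of gated NK cells (%) with 0, 1, 2 to 4, 5 to 9 or 10 and more UMIs of each chemokine after thinning every cell to 1000 UMIs, in aged brain, aged spleen and young spleen. Ccl3 is at 0 UMIs in 95.7% of aged brain cells, against 49.0% of aged and 38.0% of young spleen cells, while Ccl5 is at 0 in 13.04%, 1.70% and 1.28%.

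The brain cells also carried microglial RNA, whose 9 markers summed to 2966 CPM in gated NK cells of aged brain and 28.1 CPM in those of aged spleen, against 19320 CPM in aged microglia-like cells. Its part in the ratios was not tested. For Ccl3 the microglia-like level, 104 CPM, lay above that of the brain NK cells. In the young brain, 9 gated NK cells held 1 Ccl3, 3 Ccl4, 160 Ccl5 and 19 Xcl1 UMIs, and no ratio was formed. All 110 aged brain lymphocytes together held 5542 CPM of Ccl5 (5290 to 5803) and 467 CPM of Xcl1 (396 to 547), against 8250 CPM (7446 to 9118) and 752 CPM (524 to 1046) in the 20 young brain lymphocytes.

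The few gated T cells of the aged brain did not follow the NK pattern in full. In 17 CD8 T cells of aged brain and 429 of aged spleen, Xcl1 was at 665 and 154 CPM, a ratio of 4.33 (3.03 to 6.03) with 29 of the 38 brain UMIs in 1 cell, and Ccl5 at 6087 and 3825 CPM, a ratio of 1.59 (1.43 to 1.77). Ccl4 was at 332 CPM in aged brain and 140 CPM in aged spleen, a ratio of 2.38 (1.42 to 3.75), but 1 brain cell held 17 of its 19 UMIs. Ccl3, with 6 UMIs in the brain cells, was at 3.31 (1.19 to 7.46), 5 of them in 1 cell. Here 3 of 4 genes were at least 2-fold higher in brain, where 22.7% of 5942 genes were and 10.3% were at least 2-fold lower. With the gate applied to all cells and no clusters, Xcl1 was at 1.38 (0.445 to 3.23), Ccl5 at 1.01 and Ccl4 at 0.292, so the higher values of these genes in brain CD8 T cells did not hold under that gate. In 16 gated NKT cells of aged brain and 426 of aged spleen, Ccl5 was at 5472 and 7482 CPM, a ratio of 0.731 (0.653 to 0.817), and Xcl1 at 290 and 886 CPM, a ratio of 0.327 (0.190 to 0.525). Ccl3 and Ccl4 rested on 2 and 3 brain UMIs, at ratios of 0.0755 and 0.0457, so 3 of 4 genes were at least 2-fold lower, where 14.5% of 5768 genes were and 15.9% were at least 2-fold higher. The spleen gate for NKT cells took in NK cells, with 452 CPM of Ccl3 against 8.12 CPM in the clustered NKT-like cells.

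**Figure D4:**
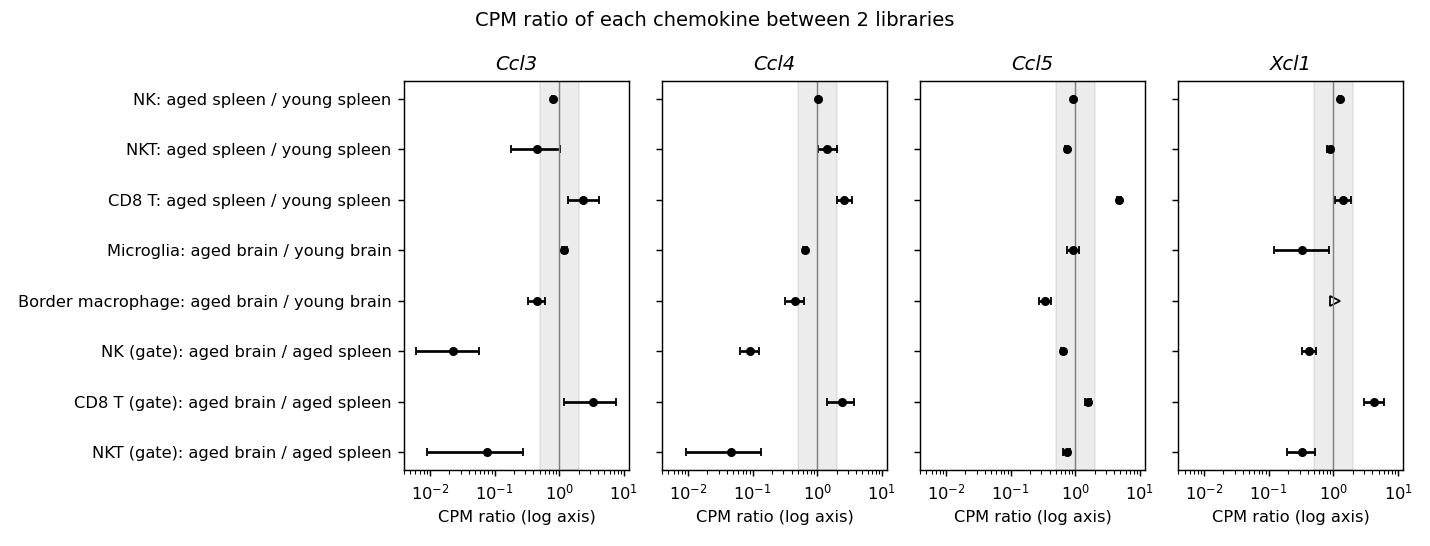
Ratio of CPM (log axis) of each chemokine with 95% counting intervals: aged over young spleen, aged over young brain, and aged brain over aged spleen by class, with a grey band between 0.5 and 2 and an open triangle for a lower bound. In NK-like cells of the spleen all 4 ratios lie within the band, and in gated NK cells Ccl3 falls to 0.0228 and Ccl4 to 0.0910 in aged brain relative to aged spleen.

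Microglia, the resident phagocytes of brain tissue, made up the third comparison (6833 aged and 2726 young cells). Ccl3 was somewhat higher and Ccl4 lower in the aged library. Ccl3 was at 104 CPM in aged and 87.2 CPM in young cells, a ratio of 1.20 (1.09 to 1.31). Ccl4 was at 88.3 and 136 CPM, a ratio of 0.649 (0.598 to 0.705). Ccl5 was at 16.2 and 17.6 CPM, a ratio of 0.920 whose interval held 1 (0.741 to 1.15). None of these 3 genes was past 2-fold, where 1.67% of 11056 genes were at least 2-fold lower and 5.52% at least 2-fold higher in aged microglia-like cells. Xcl1, at 9 and 11 UMIs, gave 0.326 (0.119 to 0.864) and lay below the minimum of 50 UMIs for that share. With cells gated without clusters, Ccl5 was at 2.41 and Xcl1 at 2.09. Free RNA (barcodes of at most 100 UMIs) held 136.5 CPM of Ccl3 in aged and 93.0 CPM in young brain, and 134 and 163 CPM of Ccl4. These values lay at or above the microglia-like levels of Ccl3 and Ccl4 and differed between the ages in the same directions. Free RNA of aged and young brain held 619 and 536 CPM of Ccl5 and 27.7 and 45.4 CPM of Xcl1, far above the microglia-like levels. The part of free RNA in the microglia-like ratios was not tested.

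A small group of cells set the level of Ccl4. The 16 young microglia-like cells with at least 10 Ccl4 UMIs held 58.6% of all Ccl4 UMIs of their class, up to 126 in 1 cell, while 21 such aged cells held 31.1%, up to 48. For Ccl3, 15 aged cells with at least 10 UMIs held 13.6% and 6 young cells held 28.2%. The share of positive cells ran the same way as the level for Ccl3, 13.8% of aged and 9.72% of young cells. For Ccl4 the shares were 9.48% and 8.69%, with overlapping intervals. Thinned to 1000 UMIs, Ccl3 was in 7.32% of aged and 5.46% of young cells and Ccl4 in 4.93% and 4.78%. Median depths were 2328 UMIs in aged and 2486 UMIs in young cells.

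Other cells of the brain libraries carried these RNAs too, together with microglial RNA. In the aged brain, Ccl3 was at 99.1 CPM (62.8 to 149) in 62 astrocyte-like cells, 39.9 CPM (31.6 to 49.6) in 445 endothelial-like cells and 34.0 CPM (22.4 to 49.5) in 168 mural-like cells. The 9 microglial markers summed there to 15010, 9438 and 10040 CPM, against 19320 CPM in microglia-like cells. Ccl3 was found in 16.1% of the astrocyte-like and 10.8% of the endothelial-like cells, at median depths of 2818 and 3012 UMIs, against 13.8% of aged microglia-like cells at 2328 UMIs. Thinned to 1000 UMIs, the shares were 7.32% (6.70 to 7.98) in microglia-like, 6.90% (1.91 to 16.7) in astrocyte-like and 3.18% (1.66 to 5.49) in endothelial-like cells. The microglia-like share thus lay above that of endothelial-like cells and could not be told apart from that of the astrocyte-like cells. In 141 astrocyte-like cells of the young brain Ccl3 was at 22.2 CPM and in 4.26% of cells, with the markers at 14440 CPM. No astrocyte-like, endothelial-like or mural-like cell held 10 or more Ccl3 or Ccl4 UMIs. Ccl5 was at 14.95 CPM in endothelial-like cells of aged brain, where 1 cell held 16 of the 30 UMIs. It was at 5.04 CPM (1.37 to 12.9) in mural-like and 3.84 CPM (1.05 to 9.83) in choroid plexus-like cells. The 16.2 CPM of aged microglia-like cells (14.3 to 18.1) was near the first and above the other values, and the part of free RNA in it was not tested.

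The ages again filled different clusters. Cluster 0, led by Mlph, Cx3cr1 and Lrrc3, held 5064 aged and 59 young cells and had Ccl3 at 90.4 CPM (85.5 to 95.6) in aged and 19.5 CPM (4.01 to 56.9) in young cells. Its Ccl4 was at 63.7 CPM (59.6 to 68.1) in aged and 19.5 CPM in young cells, on 3 young UMIs for each gene, so Ccl4 was higher in aged cells here, unlike in the class. Cluster 4, with Fcrls and Lgmn among its leading genes, held 229 aged and 2565 young cells. In it Ccl3 was at 108 CPM (80.9 to 141) in aged and 87.1 CPM (80.1 to 94.6) in young cells, and Ccl4 at 87.8 CPM (63.8 to 118) and 122 CPM (113 to 131), with overlapping intervals for each gene. Cluster 2, led by Lpl and Spp1, genes of lipid-handling microglia, held 1431 aged and 61 young cells and had Ccl3 at 172 and 85.6 CPM and Ccl4 at 188 and 214 CPM. Cluster 1, led by the interferon-induced genes Cxcl10 and Ifit3, held 109 aged and 41 young cells. Its Ccl4 was the highest of any microglial cluster, 306 CPM (247 to 374) in aged and 1039 CPM (860 to 1245) in young cells, and its Ccl5 was at 104 and 203 CPM. Few cells set these levels. In aged cells of cluster 1, 3 cells held 44.7% of the Ccl4 UMIs and 2 cells held 87.5% of the Ccl5 UMIs, and the young values rest on 41 cells. In cluster 1, Ccl3 was at 120 CPM in aged and 185 CPM in young cells, with overlapping intervals.

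**Figure D5:**
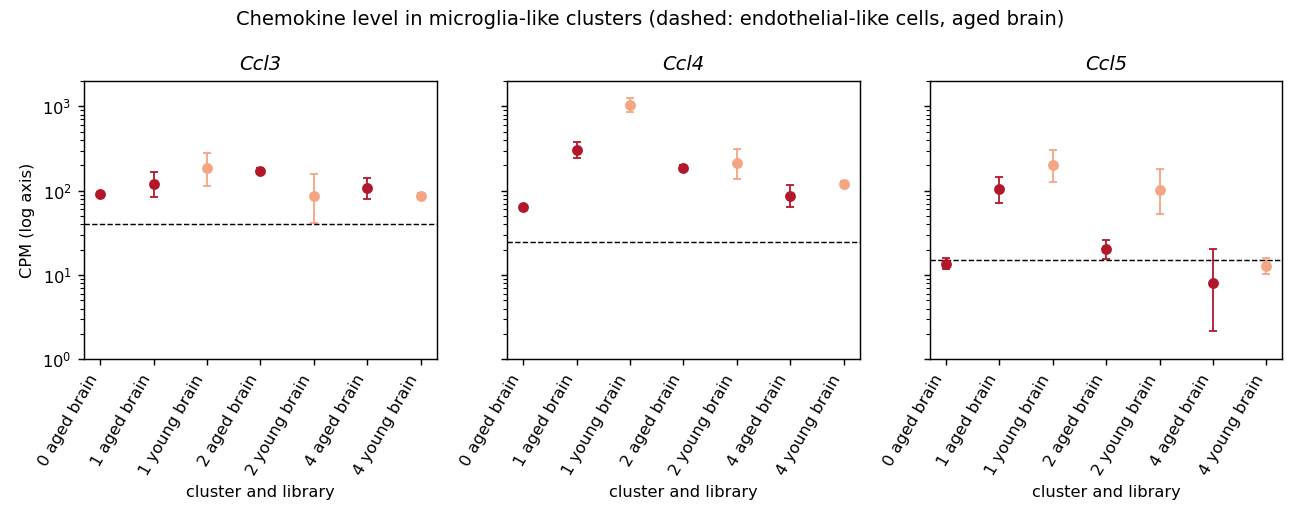
Level of Ccl3, Ccl4 and Ccl5 in CPM (log axis) by microglia-like cluster in aged (dark red) and young (light orange) brain, with 95% counting intervals and, as a dashed line, the level in endothelial-like cells of the aged brain. Ccl4 in the interferon cluster 1 reaches 306 CPM in aged and 1039 CPM in young cells, above the other microglial clusters. Of its aged Ccl4 UMIs, 3 of 109 cells held 44.7%.

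Border macrophage-like cells, named for macrophages of the meninges and vessel walls, held less Ccl3, Ccl4 and Ccl5 in the aged library (891 aged and 235 young cells). Ccl3 was at 58.8 CPM in aged and 132 CPM in young cells, a ratio of 0.446 (0.332 to 0.603), and Ccl4 at 45.6 and 102 CPM, a ratio of 0.448 (0.320 to 0.634). Ccl5 was at 85.7 CPM in aged and 253 CPM in young cells, a ratio of 0.339 (0.271 to 0.425). So 3 of 4 genes were at least 2-fold lower, where 2.04% of 6661 genes were and 5.12% were at least 2-fold higher.

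These ratios rested on single cells. Of the young UMIs, 1 cell held 125 of 134 for Ccl5, 1 cell 30 of 70 for Ccl3 and 1 cell 27 of 54 for Ccl4. Of the aged UMIs, 6 cells held 139 of 201 for Ccl5. The shares of positive cells were 9.32% of aged and 13.2% of young cells for Ccl3, 5.39% and 5.53% for Ccl4, and 4.38% and 4.26% for Ccl5, and after thinning 5.15% and 5.05% for Ccl3. At a mitochondrial limit of 5%, Ccl3 was at 1.11 and Ccl4 at 1.04. With another clustering seed they were at 0.705 and 0.935, and after thinning Ccl3 was at 0.636, Ccl4 at 0.579 and Ccl5 at 0.627. With cells gated without clusters Ccl5 turned to 3.94, so the 2-fold calls did not hold across settings. Xcl1 had 14 UMIs in aged, 10 of them in 1 cell, and 0 in young cells, where a floor of 3 counts allows up to 1.28% of young cells with a UMI, and no direction was read from it. The 10 NK markers summed to 28.6 CPM in aged and 3.77 CPM in young border macrophage-like cells, and their part in the Xcl1 and Ccl5 values was not tested.

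Ccl3 and Ccl4 were found in the same cells more often than the product of their shares. Among thinned NK-like cells both were found in 284 aged cells where 226 were expected, 1.26 times, and in 846 young cells where 737 were expected, 1.15 times. Ccl4 was in 85.8% of aged NK-like cells with Ccl3 and 47.3% of those without it. In microglia-like cells both were found in 82 aged cells where 23.5 were expected, 3.49 times, and in 19 young cells where 6.88 were expected, 2.76 times. Ccl3 and Xcl1 showed no such tie in NK-like cells, at 0.949 in aged and 0.999 in young spleen. Cells of 1 library share depth and free RNA, so these are descriptions.

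Spleen NK-like cells were also split by Nr4a1, an immediate early gene induced by receptor signals. After thinning, Ccl3 was found in 63.1% of aged cells with Nr4a1 and 45.4% without, and in 70.9% of young cells with Nr4a1 and 59.6% without. Ccl4 was found in 72.6% of aged cells with Nr4a1 and 64.1% without, and in 76.4% and 69.1% of young cells. Xcl1 was found in 56.2% of aged cells with Nr4a1 and 45.8% without, and in 47.3% and 43.3% of young cells. Ccl5 was in nearly all cells either way, and its mean was 11.1 UMIs per aged cell with Nr4a1 and 11.2 without, and 11.9 and 12.5 in young cells. The split rested on 317 aged cells with and 295 without Nr4a1, and on 491 and 1173 young cells. A split by Fos, another immediate early gene, gave smaller gaps for Ccl3, and for Xcl1 in aged cells the gap ran the other way. Cells were thinned anew for each split, so the shares over all cells differ a little between splits. Ccl3 was in 54.0% of aged cells with Fos and 52.1% without, and in 64.7% and 61.2% of young cells. Xcl1 was in 49.8% of aged cells with Fos and 51.1% without, and in 43.6% and 39.6% of young cells. Ccl4 was in 72.8% of aged cells with Fos and 64.7% without, and in 70.3% and 69.0% of young cells. In a split by Nfkbia, Ccl3 was in 57.3% of aged cells with it and 42.4% without, and in 66.7% and 60.1% of young cells. Xcl1 was in 54.6% of aged cells with Nfkbia and 41.1% without, and in 46.2% and 38.9% of young cells. Ccl4 was in 72.03% of aged cells with Nfkbia and 58.9% without, and in 72.5% and 69.1% of young cells.

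Lists of activation genes were set beside the chemokines. In aged spleen NK-like cells, 7 of 12 NF-kB feedback genes were at least 2-fold higher than in young ones and none was 2-fold lower, with a median of 1.52 on the log2 scale against -0.13 over all genes, of which 2.02% were at least 2-fold higher and 2.27% lower. Nfkbia, which holds NF-kB in the cytoplasm, was at 1906 CPM in aged and 692 CPM in young cells, and Tnfaip3, an enzyme that damps NF-kB signals, at 1689 and 564 CPM. Of 22 immediate early genes 5 were at least 2-fold higher, with Junb at 4377 CPM in aged and 2427 CPM in young cells. Of 7 measured activation cytokines none was past 2-fold, and Ifng, the interferon of NK cells, was at 509 and 534 CPM. Of 11 measured effector lineage factors 1 was past it: Bhlhe40, at 956 CPM in aged and 467 CPM in young cells.

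In gated NK cells of the aged brain, immediate early and NF-kB feedback genes stood low and the activation cytokines were mixed. Of 22 immediate early genes 17 were at least 2-fold lower than in aged spleen and none was 2-fold higher, with a median of -2.86 on the log2 scale against 0.01 over all genes, of which 15.4% were at least 2-fold lower and 10.1% higher. Junb was at 372 CPM in aged brain and 4625 CPM in aged spleen. Of 12 NF-kB feedback genes 10 were at least 2-fold lower, with Nfkbia at 96.6 CPM in aged brain and 1798 CPM in aged spleen and Tnfaip3 at 29.7 and 1748 CPM. Of 6 measured activation cytokines 2 were at least 2-fold higher and 1 lower, with a median of 0.17. Ifng gave 2 UMIs in brain, 14.9 CPM, against 487 CPM in spleen. Of 10 measured effector lineage factors 5 were at least 2-fold lower, with Bhlhe40 at 66.9 CPM in aged brain and 914 CPM in aged spleen and Eomes, a factor of NK cell maturation, at 52.0 and 377 CPM. The higher cytokine genes were Ltb, at 446 CPM in aged brain and 173 CPM in aged spleen, and Tnfsf10 (TRAIL), at 156 and 22.1 CPM. Eomes was thus lower and Tnfsf10 higher in the gated brain cells. Whether the NK gate held the same kinds of cells in brain and spleen was not tested.

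In microglia-like cells 8 of 20 measured immediate early genes were at least 2-fold lower in aged brain, with a median of -0.83 on the log2 scale against 0.06 over all genes, of which 1.67% were at least 2-fold lower and 5.52% higher. Jun was at 2137 CPM in aged and 4152 CPM in young cells. None of 12 NF-kB feedback genes was past 2-fold. Of 15 other measured chemokines 3 were at least 2-fold higher and 2 at least 2-fold lower, with Ccl12 at 134 CPM at either age and Ccl9 at 105 CPM in aged and 153 CPM in young cells. In border macrophage-like cells Ccl8 was at 586 CPM in aged and 215 CPM in young cells, and Pf4 at 1271 and 2637 CPM.

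Of the receptor genes, Ccr1 was at 182 CPM in aged and 98.0 CPM in young border macrophage-like cells and at 7.44 and 18.4 CPM in aged and young microglia-like cells. Xcr1, the Xcl1 receptor, was at most 3.84 CPM in these classes. In conventional DC-like cells, chosen after the values were seen and named in part by this gene, Xcr1 was at 39.5 CPM in 51 cells of aged brain (8 UMIs), 9.46 CPM in 292 cells of aged spleen (13 UMIs) and 42.0 CPM in 126 cells of young spleen (27 UMIs).

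Across 46 groups of at least 50 cells, formed by class or unnamed cluster and library, the genes nearest to each chemokine were sought by Pearson's r of log2(CPM + 10) over 4868 genes. The groups share libraries and their free RNA, so r is a description. Ccl3 and Ccl4 were nearest to each other, with an r of 0.919. Next for Ccl3 came Adamts14 (0.781), the NK receptor gene Ncr1 (0.770), Cd244, Klri2 and Klrb1a. For Ccl4 the same 5 genes came in the order Klri2 (0.844), Klrb1a, Ncr1, Adamts14 and Cd244. For Ccl5 they were Nkg7, a cytotoxic granule gene (0.929), Klrd1, Ctsw, Il2rb and Klrk1, and for Xcl1 the NK receptor genes Klrc1 (0.975), Klrb1c, Klrc2 and Cd160 and the protease gene Ctsw. Ccl5 and Xcl1 stood at 0.886 with each other, whereas Ccl3 stood at 0.463 with Ccl5 and 0.488 with Xcl1. With log2(CPM + 1), 2 of the 5 genes named for Ccl3 (Adamts14 and Cd244), 4 for Ccl4, 3 for Ccl5 and 4 for Xcl1 were again among the nearest 5.

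The authors' deposited tables list genes with a log ratio above 0.25 for each of their own clusters against all other cells of that library. In the authors' deposited table for the aged brain, Ccl5 came first in cluster 11, with a natural log ratio of 3.73 and 86.5% of its cells positive against 1.60% elsewhere. Xcl1 was at 1.55 in that authors' deposited cluster, in 46.8% of cells, and Ccl3 and Ccl4 were not among its 551 listed genes. In the authors' deposited table for the aged spleen, cluster 2 listed Ccl4 at 2.5, Ccl5 at 2.12, Ccl3 at 2.08 and Xcl1 at 1.98. In the authors' deposited table for the young spleen, cluster 1 listed Ccl4 at 2.21, Ccl3 at 2.09, Ccl5 at 2.02 and Xcl1 at 1.17. The authors' deposited table for the young brain listed all 4 in cluster 5, with Ccl5 at 2.76 and Ccl3 at 1.90, and whether those cells lay at barcodes of the aged spleen could not be read from the table.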

How the data were processed

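Droplet libraries (10x, 3' ends) of aged and young mouse brain and spleen were deposited as UMI counts per gene and barcode, made by the authors and not normalized. Software version 3.1.0 stands in the file headers, while Cell Ranger 1.3.1 and the human build GRCh38 are listed per the submitters' processing notes, against mouse gene identifiers in the files. No source used here states the annotation. The authors' deposited cluster tables hold p-values, log ratios (taken as natural log from a comparison with the counts) and the fraction of positive cells.

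Barcodes were called against free RNA (barcodes of at most 100 UMIs, 10000 simulations, false discovery rate 0.01), then kept at 500 UMIs, 250 genes and at most 10% mitochondrial UMIs. Doublet calling removed 157 cells in aged and 239 in young spleen and 99 in young brain. In aged brain the automatic threshold marked 0 cells, so the 1401 highest scores were removed. Cells were clustered without the 4 genes (2000 variable genes, 30 components, 15 neighbours, resolution 1.0, and 1.5 for lymphocytes) and named from fixed markers. Unnamed cells stayed unnamed, among them cluster 3 with 2839 aged and 469 young brain cells (median 656 UMIs).

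Counts were summed per class and library. CPM has exact Poisson intervals, shares have Clopper-Pearson intervals and ratios have exact conditional binomial intervals, all at 95% and covering counting error only. A count of 0 was set to a floor of 3 counts. A minimum of 50 UMIs per gene, summed over the pair of libraries, was set for the 2-fold counts. The members and lists were chosen with earlier results of these data known, and the lymphocyte gate for brain against spleen was chosen after seeing the data. Named genes were the 4 members, up to 4 members of each list with the most UMIs over both libraries, and the 5 genes nearest to each member by r. The fold computation was tested on simulated data. Software was Python 3.11.15, scanpy 1.11.5, leidenalg 0.10.2, scipy 1.17.1, numpy 2.4.6 and pandas 2.3.3. Some list and marker genes are not reported here.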

Additional observations from a re-analysis of the deposited data

How the results depend on the processing

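With 1 library per group, no library could be left out in turn, and differences between animals could not be separated from differences between groups. No paired analysis was possible because each group has 1 library and the labels give no shared replicate numbers. Of the spleen ratios under alternative settings, 62 of 96 lay within the reported interval, 30 lay outside it and 4 reversed a ratio that had been past 2-fold. For aged over young brain these were 54, 14 and 4 of 72, and for aged brain over aged spleen 78, 17 and 1 of 96. In gated NK cells the brain to spleen ratio ran between 0.0197 and 0.0305 for Ccl3, 0.0786 and 0.141 for Ccl4, 0.489 and 0.665 for Ccl5, and 0.119 and 0.510 for Xcl1. In spleen NK-like cells the aged to young ratio ran between 0.595 and 0.866 for Ccl3 and between 0.566 and 1.11 for Ccl4. It ran between 0.867 and 1.02 for Ccl5 and between 0.730 and 1.35 for Xcl1, so Ccl4, Ccl5 and Xcl1 crossed 1. The lowest Ccl3, Ccl4 and Xcl1 values and the highest Ccl5 value came at the mitochondrial limit of 5%. That limit left 88 aged NK-like cells deep enough for thinning, against 612 in the main setting.

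Of 12 spleen ratios 4 were past 2-fold, against 2 at a mitochondrial limit of 5% and 0 with gated cells. Of 8 brain ratios 4 were, against 2 after thinning and 2 with another clustering seed. These counts set no minimum of UMIs. They include Ccl3 in NKT-like cells (7 and 53 UMIs), whose interval held 1, and Xcl1 in microglia-like cells (9 and 11 UMIs). After thinning, only Xcl1 ratios were past 2-fold in brain. With cells gated by markers alone, the ratio of Ccl3 turned to 0.529 in CD8 T and 1.18 in NKT cells of the spleen, that of Ccl5 to 1.20 in NKT cells, that of Xcl1 to 0.678 in CD8 T cells of the spleen, those of Ccl5 to 2.41 and Xcl1 to 2.09 in microglia, that of Ccl5 to 3.94 in border macrophages and those of Ccl4 to 0.292 and Xcl1 to 1.38 in CD8 T cells of aged brain over aged spleen. The 5% limit lay below the median mitochondrial share of called aged spleen barcodes, 5.69%, and above that of young spleen, 4.59%. At the 5% limit, Ccl4 turned to 0.940 and Ccl5 to 0.806 in CD8 T-like cells, and Ccl3 to 1.11 and Ccl4 to 1.04 in border macrophage-like cells. The cause was not tested. With a minimum of 10 UMIs, which lets in genes of few counts, the share of all genes past 2-fold was 8.72% in NK-like, 10.4% in CD8 T-like, 11.6% in NKT-like, 14.5% in microglia-like and 14.9% in border macrophage-like cells, and 52.6% in gated CD8 T and 49.9% in gated NKT cells, against 4.30%, 3.80%, 5.59%, 7.19%, 7.16%, 32.9% and 30.4% at 50 UMIs.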
